A study of Mus musculus with 42 samples.

Results

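Gene expression of the medial prefrontal cortex (mPFC) of naive mice was set against that of 4 other brain regions of naive mice. The mPFC group held all 3 libraries labelled naive and mPFC, of 42 libraries in the series, and the comparison groups were the 12 naive libraries of the nucleus accumbens (NAc), the lateral hypothalamus (LH), the ventral hippocampus (vHippo) and the ventral tegmental area (VTA), 3 of each. Each of the 4 regions had the same weight in their mean. The membership came from the labels and from no measured value. The study asked how chronic restraint stress (CRS), in which mice are held immobile day after day, acts on the brain as a model of depression, and it sampled fresh tissue of CRS and naive mice. Libraries of naive mice are the subject here, and the CRS libraries of the same 5 regions, also 3 of each, served as a repeat of the regional comparison. Animals of every group, naive ones included, had been through a forced swim test (FST) 2 days before they were killed. Strain, sex and age were not in the labels, and a high or low FST score was given only for lateral habenula libraries, which were not used here, so mice of either score may lie behind the mPFC libraries. It is not stated that the 3 libraries of a region came from separate mice, or whether regions came from the same mice, so p-values measure only the spread between these libraries.

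The mPFC is a cortical area on the inner wall of the frontal lobe. Most of its neurons are glutamatergic pyramidal cells, arranged in layers that send axons to other cortex, to striatum and amygdala, and to thalamus and brainstem, and GABAergic interneurons control their firing. The region is known for working memory, the control of behaviour and the regulation of stress responses. Pyramidal neurons of cortex and hippocampus arise from the same embryonic territory, the pallium, and share many genes, whereas VTA, NAc and LH consist mainly of dopaminergic, striatal and hypothalamic neurons.

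Total counts of the 15 naive libraries ran from 53143878 to 81384893, with 24399 to 27145 genes counted in each, and mitochondrial genes took 5.221% to 14.688% of counts. Levels are given as FPKM (fragments scaled by gene length and library size, as deposited), which compare genes per length. Slc17a7, the vesicular glutamate transporter of cortical neurons, was at 227, 255 and 190.0 FPKM in mPFC libraries 1, 2 and 3, against 159, 226 and 202 in vHippo, 0.267, 0.102 and 13.6 in VTA, 179.7, 0.506 and 3.54 in NAc and 6.87, 5.25 and 0.565 in LH. The labelled tissue thus carried its marker in every mPFC library, and NAc library 1 carried it too, at 179.7 FPKM, close to the lowest mPFC library. The other marker of the region, Mef2c, is described below among the genes higher than in every region. Several libraries stood apart from their group. In mPFC library 3, 15 genes of the leptomeninges, the membranes around the brain, summed to 279.9 FPKM, against 23.18 and 21.99 in mPFC libraries 1 and 2 and 28.4 to 96.17 in the 12 libraries of other regions. Its endothelial and pericyte genes summed to 303.6 FPKM, against 78.58 and 84.41 in mPFC libraries 1 and 2. Pallial neuron genes summed to 1365 FPKM in NAc library 1 and to 548.1 and 682.2 in the other NAc libraries. VTA library 2 had fewer dopamine neuron transcripts (129.3 FPKM, against 851.9 and 473.3 in VTA 1 and 3) and more hypothalamic ones (343.0 FPKM, against 63.27 and 112.3). LH library 2 had fewer hypothalamic transcripts, at 355.8 FPKM against 1242 and 1877 in LH 1 and 3. Its GABA interneuron genes summed to 1248 FPKM, against 765.4 and 732.5 in LH 1 and 3. The 14 thalamic genes summed to 242.6, 223.1 and 245.3 FPKM in LH libraries 1, 2 and 3, and among them Prkcd, a protein kinase C gene of thalamic neurons, was at 32.5, 25.6 and 1.58 FPKM. Values without mPFC library 3 or without NAc library 1 are given where they change a result, and beside the counts of gene lists the range over 15 fits is given, each without 1 of the 15 libraries.

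Of 22877 genes tested with edgeR's quasi-likelihood test (Benjamini-Hochberg adjusted p below 0.05, all 15 libraries in a single fit), 1688 (7.38%) were higher and 1222 (5.34%) lower in mPFC than the mean of the 4 regions. The median log2 fold change of all tested genes was 0.02. The regions differed in how far they were from mPFC. Against vHippo, 264 genes (1.15%) were higher and 281 (1.23%) lower in mPFC. Against NAc the numbers were 412 (1.8%) and 641 (2.8%), against LH 1735 (7.58%) and 1783 (7.79%), and against VTA 2398 (10.5%) and 2528 (11.1%). Genes called in the same direction against the mean and against each of the 4 regions were few, 34 higher (0.149%) and 28 lower (0.122%). Without NAc library 1, 24049 genes were tested, 2036 (8.47%) were higher and 1201 (4.99%) lower than the mean, 902 (3.75%) higher and 659 (2.74%) lower than NAc, and 124 (0.516%) higher and 40 (0.166%) lower than every region. That fit held 32 of the 34 genes higher than every region (94.1%), which made up 25.8% of its own 124, and 23 of the 28 lower ones (82.1%, or 57.5% of its 40). The counts moved with the libraries kept. With any 1 of the 15 left out, 989 to 2036 genes were higher and 466 to 1628 lower than the mean, 71 to 403 higher and 79 to 395 lower than vHippo, and 8 to 124 higher and 7 to 103 lower than every region, the last numbers being 13 and 8 without mPFC library 1, 14 and 7 without library 2, and 97 and 103 without library 3. Because the mean is taken on the log2 scale, a region that nearly lacks a gene weighs heavily in it, and a gene higher than the mean need not exceed each region.

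Of the 34 genes higher in mPFC than in every other region, 24 had an established symbol and a mean of at least 1 FPKM in mPFC, and for 22 of these 24 all 3 mPFC libraries were above all 12 others. The genes were chosen by calls in these same libraries, so this separation is no separate evidence. Its share over all genes is not given here. Mef2c, the one with the largest log2 fold change of the 24 (ENSMUSG00000005583, chr13:83504034-83667078), a transcription factor of activity-dependent gene expression in cortical neurons, had levels of 83.2, 44.1 and 33 FPKM in mPFC, against 6.92, 8.81 and 13.6 in vHippo, 0.817, 0.805 and 0.979 in VTA, 17.6, 6.45 and 6.46 in NAc and 2.15, 2.04 and 1.51 in LH. Every mPFC library was above the highest of the others, NAc library 1, although mPFC libraries differed among themselves more than 2-fold. The log2 fold change was 3.95 ± 0.29 (SE; adjusted p = 1.02e-05) over the mean, and 2.5 over vHippo, 5.98 over VTA, 2.43 over NAc and 4.88 over LH. Ccdc3 (chr2:5137776-5230878), which encodes a secreted coiled-coil protein, was at 7.15, 7.85 and 9.82 FPKM in mPFC, against 0.324 to 2.33 FPKM in the 12 other libraries. The 3 mPFC libraries were close to each other and none of the others reached them (log2 fold change 3.46 ± 0.31, adjusted p = 5.16e-05).

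Receptor and signalling genes were among the same group. Cckbr (chr7:105425731-105470898), the receptor through which the neuropeptide cholecystokinin acts in the brain, was at 30.7, 27 and 17.3 FPKM in mPFC, against 3.07, 2.46 and 3.8 in vHippo, 7.8, 2.33 and 2.58 in VTA, 10.5, 3.08 and 3.23 in NAc and 1.84, 1.8 and 3.38 in LH. The lowest mPFC library, number 3, was still above the highest of the others, NAc library 1, and the log2 fold change was 2.84 ± 0.38 (adjusted p = 0.000596). Rbp4 (chr19:38116629-38125281), the carrier of retinol, which marks a class of layer 5 neurons, was at 7.23, 11.3 and 14.7 FPKM in mPFC and at 0.844 to 6.67 elsewhere (2.45 ± 0.27, adjusted p = 0.000149). NAc library 1 came nearest to it, at 6.67 FPKM, and the other 11 libraries were at 3.02 or less. Cd34 (chr1:194938819-194961279), a surface sialomucin known from endothelium and blood stem cells, was at 9.74, 8.23 and 6.84 FPKM in mPFC and at 1.86 to 4.47 elsewhere (1.78 ± 0.13, adjusted p = 7.69e-06). Without mPFC library 3 its log2 fold change was 1.94 (adjusted p = 6.64e-06).

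Further transcription factor genes belonged to the group. Tshz3 (chr7:36698118-36773553), a zinc finger factor of deep-layer projection neurons, was at 10.8, 10.5 and 5.07 FPKM in mPFC and 1.25 to 3.77 elsewhere (2.26 ± 0.29, adjusted p = 0.000428). Tox (chr4:6686353-6990799), an HMG box protein known from T cell and neural development, was at 8.95, 8.97 and 5.84 FPKM and 1.27 to 4.55 (1.88 ± 0.24, adjusted p = 0.000445). For both, mPFC libraries 1 and 2 were close to each other and library 3 was the lowest, though above all others. Etv6 (chr6:134035700-134270158), an ETS family repressor, was at 8.42, 5.94 and 4.3 FPKM in mPFC and 1.57 to 2.85 elsewhere, and its log2 fold change was nearly the same over each region, from 1.56 over VTA to 1.65 over LH. Among the rest of the 12 leading genes, Herc6 (chr6:57581000-57664632), an interferon-induced ubiquitin ligase in mouse, was at 5.67, 2.33 and 1.99 FPKM against 0.466 to 0.942 (2.28 ± 0.22, adjusted p = 8.35e-05), and Plp2 (chrX:7667941-7671390), a membrane proteolipid, at 5.92, 4.73 and 5.43 against 0.898 to 2.85 (1.75 ± 0.21, adjusted p = 0.000219).

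The libraries overlapped for 2 of the 24. Stard8 (chrX:99003248-99074728), a GTPase activating protein, was at 5.19, 2.15 and 5.52 FPKM in mPFC and at most 2.43 elsewhere, so that mPFC library 2 was below NAc library 1. Col3a1 (chr1:45311538-45349706), a fibrillar collagen of connective tissue, was at 0.40, 0.787 and 2.92 FPKM in mPFC and 0.0872 to 0.616 elsewhere, and most of its mean came from mPFC library 3. Its log2 fold change was 2.58 ± 0.39 (adjusted p = 0.00104) with all libraries and 1.51 (adjusted p = 0.0107) without that library. The part of leptomeningeal RNA in this result was not tested. The 12 genes after the leading 12 had log2 fold changes from 0.59 (Nt5c3, a nucleotidase) to 1.49 (Tmem132a, a membrane protein). They included the immediate early gene Dusp1, a phosphatase of MAP kinases, at 12.8, 12.8 and 16.1 FPKM in mPFC and 4.46 to 9.97 elsewhere (1.03 ± 0.18), and Flrt2, an adhesion protein that binds Unc5 receptors and latrophilins, at 18.8, 12.2 and 9.11 and 4.46 to 8.21 (1.21 ± 0.17). Trib1, Rassf3, Garnl3, Ccl27a, Klf6, Myrip, Tnfrsf19 and Alg13 completed them. All 12 had mPFC libraries above every other, which is no separate evidence for genes chosen by calls in the same libraries.

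**Figure D1:**
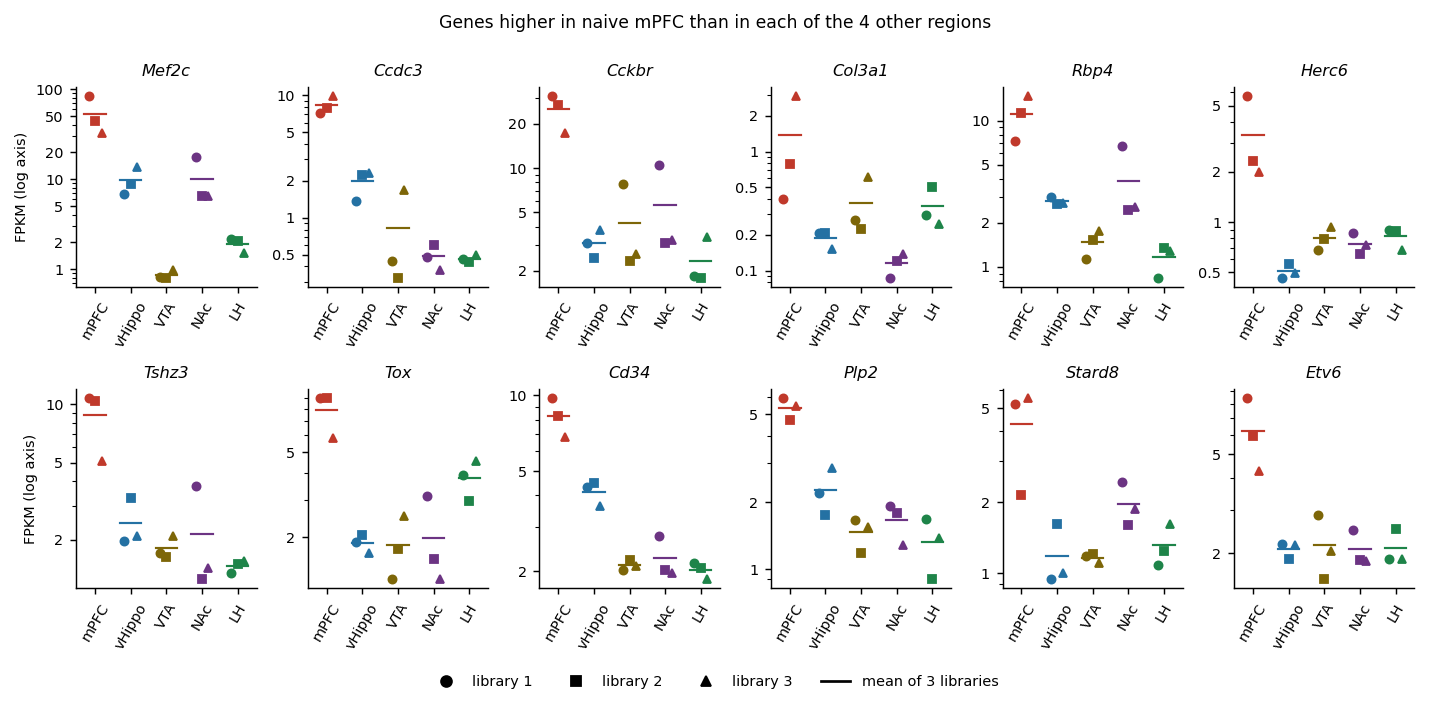
FPKM per library (log axis) of the 12 genes with the largest log2 fold changes among those higher in naive mPFC than in each of vHippo, VTA, NAc and LH. Points are libraries 1 to 3 of a region and lines are means; the mPFC points lie above all others except for Col3a1, whose mean rests on library 3, and Stard8.

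The genes lower in mPFC than in every other region were led by 3 receptors. Of the 28, 18 had an established symbol and a mean of at least 1 FPKM over the 12 other libraries, and for each of these 18 all mPFC libraries were below all others. Here too the genes were chosen by calls in the same libraries, so the separation is no separate evidence. Its share over all genes is likewise not given. Gpr101 (chrX:57496668-57503757), an orphan receptor coupled to G proteins, was at 0.106, 0.193 and 0.38 FPKM in mPFC, against 17.5, 2.25 and 11.7 in vHippo, 2.24, 8.93 and 3.33 in VTA, 1.32, 15.1 and 6.98 in NAc and 10.8, 3.79 and 17.4 in LH. The highest mPFC library was still below NAc library 1, the lowest of the others, and the log2 fold change was −5.08 ± 0.98 (adjusted p = 0.00532). Chrm5 (chr2:112479171-112480769), the M5 muscarinic receptor, was at 0.135, 0.0533 and 0.0199 FPKM in mPFC and at 0.226 to 4.47 elsewhere (−4.86 ± 1.05, adjusted p = 0.00887). Tacr3 (chr3:134829007-134934579), the neurokinin 3 receptor, was at 0.245, 0.203 and 0.336 FPKM in mPFC, against 5.61, 1.38 and 2.65 in vHippo, 17.1, 9.16 and 15.5 in VTA, 0.826, 4.01 and 2.21 in NAc and 8.91, 5.42 and 11.3 in LH (−4.34 ± 0.57, adjusted p = 0.000507). For all 3 receptors the other regions varied widely between libraries, and NAc library 1 was their lowest.

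St18 (chr1:6487231-6860940), a zinc finger transcription factor of the Myt1 family, was at 0.349, 0.25 and 0.693 FPKM in mPFC, against 6.95, 5.94 and 6.83 in vHippo, 3.86, 2.42 and 5.01 in VTA, 2.73, 3.37 and 2.25 in NAc and 3.46, 3.66 and 2.94 in LH. The vHippo was the highest of the regions, VTA, NAc and LH overlapped each other, and the log2 fold change was −3.15 ± 0.29 (adjusted p = 6.31e-05). Col11a1 (chr3:114030540-114220718), a fibrillar collagen, was at 0.438, 0.257 and 0.704 FPKM in mPFC and 0.885 to 12.5 elsewhere (−2.94 ± 0.38, adjusted p = 0.000471), so that its direction was opposite to that of the collagen gene Col3a1. B3galt5 (chr16:96235801-96319859), a galactosyltransferase of glycolipid synthesis, was at 2.96, 3.66 and 3.69 FPKM in mPFC and 8.79 to 18.1 elsewhere (−1.72 ± 0.21, adjusted p = 0.000231). Stc1, the secreted glycoprotein stanniocalcin 1 (chr14:69029238-69041804), was at 0.159, 0.207 and 0.382 and 0.628 to 1.99 FPKM (−2.01 ± 0.34), and Smco3 (chr6:136829927-136835450) at 0.285, 0.719 and 0.693 and 1.31 to 7.95 (−2.72 ± 0.44).

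The rest of the leading 12 were Rerg, Dock10, Mdga1 and Cachd1. Rerg (chr6:137054825-137170497), a Ras-like GTPase, was at 1.29, 0.457 and 1.92 FPKM in mPFC and 3.04 to 11.7 elsewhere (−2.45 ± 0.37, adjusted p = 0.00112). Dock10 (chr1:80501073-80758527), an exchange factor for small GTPases, was at 1.12, 0.999 and 1.77 FPKM and 3.48 to 9.46 (−2.07 ± 0.27, adjusted p = 0.000454), and Mdga1 (chr17:29827949-29889960), a membrane-anchored protein that binds neuroligins, at 0.688, 0.853 and 1.9 and 2.94 to 8.25 (−2.05 ± 0.33, adjusted p = 0.0018). In these genes mPFC library 3 was the highest of the mPFC libraries, yet below all others. Cachd1 (chr4:100776675-101029220), related to auxiliary calcium channel subunits, had a log2 fold change of −1.97 ± 0.34. The 6 genes after the leading 12 were Htr2c, Thsd7a, Gfra1, Ppfia4, Ston2 and Chd4, with log2 fold changes from −1.72 to −0.48. Htr2c, the serotonin 2C receptor, was at 4.23, 3.43 and 3.42 FPKM in mPFC and 5.59 to 18.9 elsewhere, and Gfra1, a receptor for GDNF, at 3.49, 4.13 and 7.25 and 8.23 to 19.6. Chd4, the ATPase of the NuRD chromatin remodeller, showed the smallest difference of the group, with 15.3, 14.9 and 19.2 FPKM in mPFC and 20.6 to 27.5 elsewhere.

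**Figure D2:**
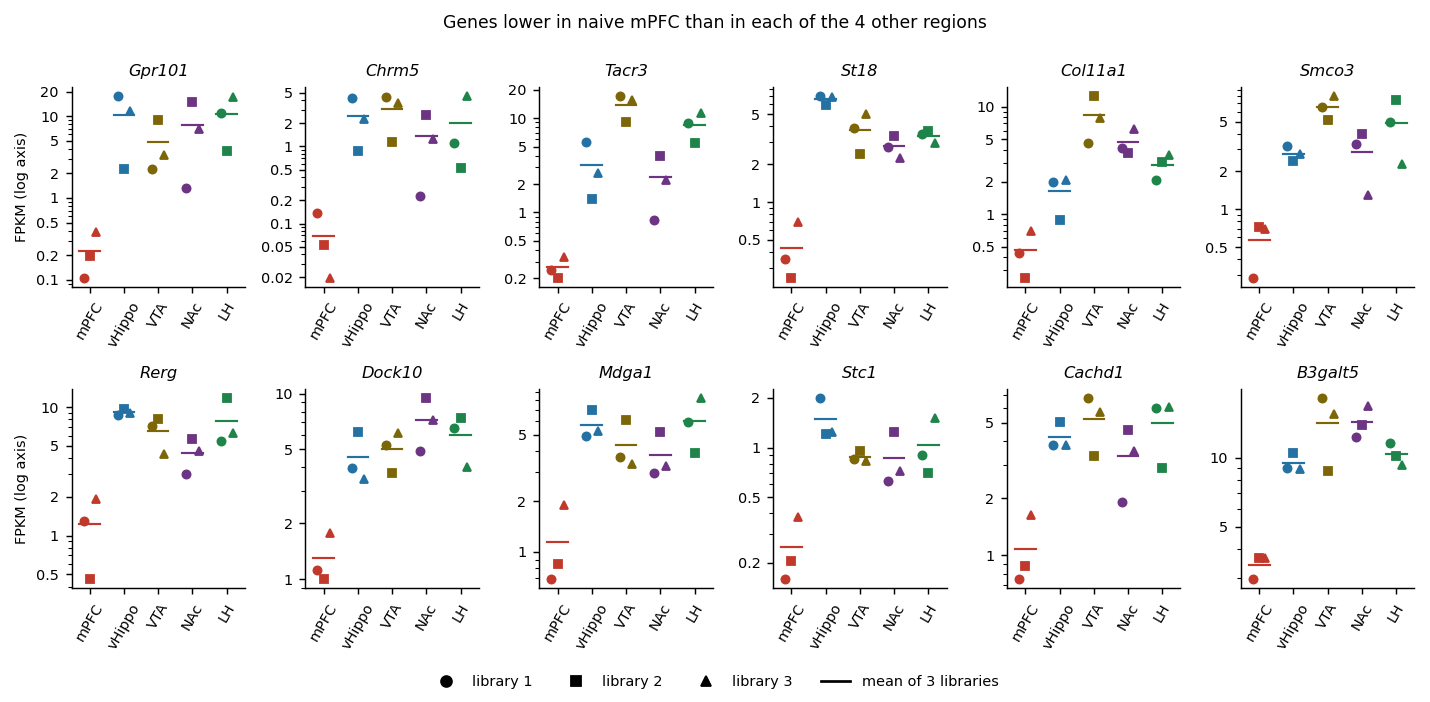
FPKM per library (log axis) of the 12 genes with the most negative log2 fold changes among those lower in naive mPFC than in each of vHippo, VTA, NAc and LH. Points are libraries 1 to 3 of a region and lines are means; the 3 mPFC points lie below all 12 others in every panel.

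The vHippo, the other pallial region, was the nearest to mPFC by the number of genes called. Apart from Cckbr and Mef2c, the largest differences in favour of mPFC at 5 FPKM or more were in Rasgef1c, Zdhhc22, Fhod3 and Cobl. Rasgef1c, a predicted exchange factor for Ras proteins, was at 6.46, 4.79 and 7.01 FPKM in mPFC and 0.814, 0.507 and 1.06 in vHippo (2.97 ± 0.37, adjusted p = 0.0015). Its NAc levels, 7.73, 4.08 and 5.91, overlapped those of mPFC. Zdhhc22, a palmitoyltransferase, was at 21.3, 25.5 and 16.1 FPKM in mPFC and 2.99, 3.53 and 5.19 in vHippo (2.49 ± 0.33, adjusted p = 0.00203), and LH overlapped mPFC at 26.2, 16.5 and 16.9. The actin regulators Fhod3, a formin, and Cobl, a nucleator, had log2 fold changes of 2.45 ± 0.35 and 2.43 ± 0.36 over vHippo.

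In the opposite direction stood known hippocampal genes. C1ql2, a complement-related protein secreted by dentate granule cells, was at 0.144, 0.17 and 0.51 FPKM in mPFC and 15.2, 35.1 and 12.4 in vHippo (−6.22 ± 1.36, adjusted p = 0.0328). Fibcd1, of CA1 pyramidal cells, was at 0.86, 1.15 and 1.72 and 56, 16.6 and 34.3 FPKM (−4.79 ± 0.58, adjusted p = 0.0015). Krt2, a keratin, was at 0.0686, 0 and 0.172 FPKM in mPFC and 5.64, 3.71 and 5.73 in vHippo (−5.96 ± 1.37, adjusted p = 0.0489), and Gpr101 and St18 were also among the leading 6. In each of these genes the mPFC and vHippo libraries did not overlap. Of 26 genes listed as markers of vHippo, 9 were lower and 0 higher in mPFC than in vHippo, where 1.23% and 1.15% of all genes were. Cpne7, a copine of hippocampal and subicular neurons, was at 8.85, 7.74 and 20.3 FPKM in mPFC and 149.7, 94.2 and 128 in vHippo (−3.32), and Nr3c2, the mineralocorticoid receptor, at 5.15, 3.86 and 8.54 and 22.9, 23.6 and 23.1 (−1.97).

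Genes of pallial excitatory neurons were higher in mPFC than the mean of the 4 regions, by far the most over VTA and LH. Their summed level was 1721 to 1943 FPKM in mPFC, 1798 to 2354 in vHippo, 548.1 to 1365 in NAc, 165.9 to 280.4 in LH and 88.49 to 201.8 in VTA. Of 24 listed genes, 20 were called higher and 0 lower (7.38% and 5.34% of all genes), and their median log2 fold change was 2.33, against 0.02 over all genes. With any 1 library left out the number called higher was 16 to 24 and the number called lower 0; it was 18 without mPFC library 3 and 24 without NAc library 1. In bulk tissue fewer cells of a type and less RNA per cell cannot be told apart. By pairs, 1 of the 24 was higher than in vHippo, 19 than in VTA, 4 than in NAc and 19 than in LH. None was lower. Of all genes 1.15%, 10.5%, 1.8% and 7.58% were higher in these pairs, in the same order. Without NAc library 1, 14 were higher than in NAc, where 3.75% of all genes were.

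Tbr1, a transcription factor of deep-layer neurons, was at 29.5, 37.5 and 20.5 FPKM in mPFC, against 3.87, 7.43 and 4.69 in vHippo, 0.0954, 0.164 and 0.0904 in VTA, 26.7, 1.9 and 0.827 in NAc and 3.79, 2.05 and 0.855 in LH (3.98 ± 0.65, adjusted p = 0.00213). The first NAc library lay within the mPFC range and the other 2 far below it. Neurod6, of pyramidal cells, was at 74.9, 61.4 and 33.4 FPKM in mPFC, 61.3, 72.2 and 74.8 in vHippo, 1.02, 4.33 and 3.44 in VTA, 26.6, 0.0495 and 0.579 in NAc and 0.293, 0.419 and 0.461 in LH, so that mPFC and vHippo overlapped (3.51 ± 0.84, adjusted p = 0.016). Dkkl1, a dickkopf-like secreted protein, had mPFC libraries above all others, at 10.3, 8.4 and 4.23 FPKM against 0 to 3.3 (4.28 ± 0.73 over the mean, adjusted p = 0.00239). Over vHippo alone neither Tbr1 nor Dkkl1 was called.

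Camk2a and Itpka, of the same list, were high in mPFC, vHippo and NAc and low in VTA and LH. Camk2a, the alpha subunit of CaM kinase II, was at 354, 294 and 372 FPKM in mPFC, 287, 464 and 356 in vHippo and 225, 119 and 182 in NAc, against 6.2, 31.2 and 16 in VTA and 52.3, 47.3 and 58.7 in LH (2.0 ± 0.29). Itpka, a kinase of inositol trisphosphate in dendritic spines, had the smallest p of the list: 68.7, 51.1 and 44.1 FPKM in mPFC, 46.9, 63 and 57.3 in vHippo, 0.83, 1.05 and 0.866 in VTA, 32, 25 and 37.2 in NAc and 0.987, 0.924 and 1.51 in LH (3.12 ± 0.15, adjusted p = 2.5e-07). The 4 genes not called were Slc17a7 (3.4 ± 1.16, adjusted p = 0.073), Neurod1 (1.66 ± 0.54, adjusted p = 0.0599), Slc30a3 (2.15 ± 0.77, adjusted p = 0.0886) and Nptx1 (1.37 ± 0.59, adjusted p = 0.151). Without NAc library 1 their adjusted p-values were 0.00861, 0.000336, 0.000409 and 0.00829, in the same order.

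**Figure D3:**
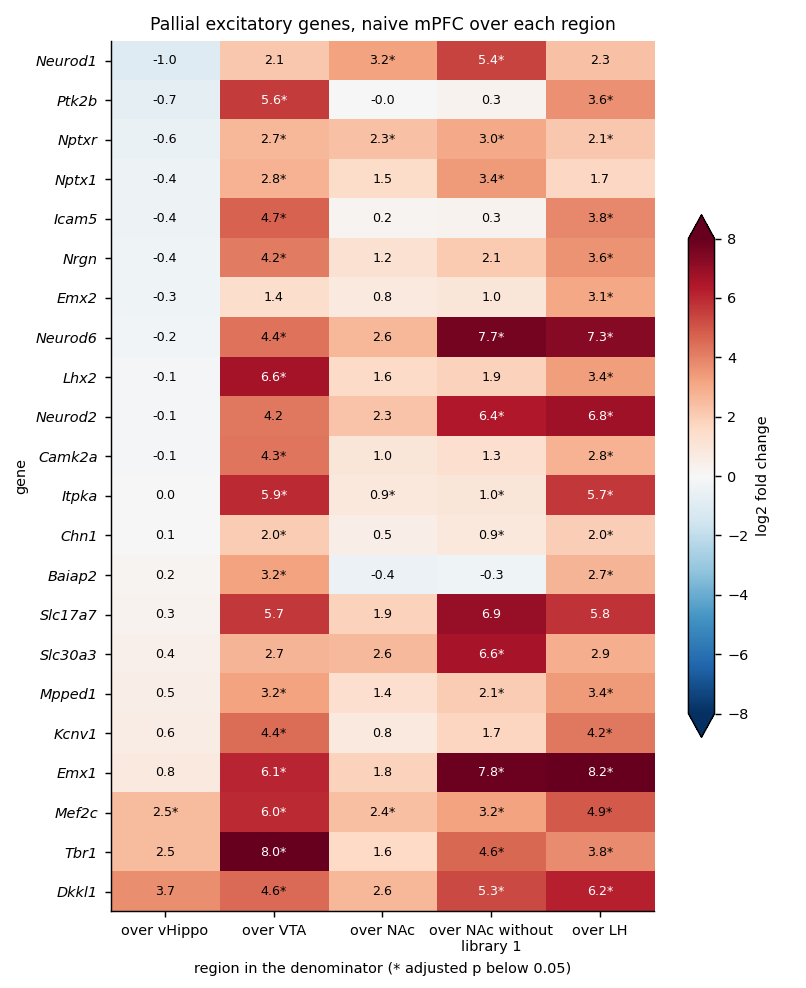
Log2 fold changes (colour and number) of 22 of the 24 pallial excitatory neuron genes in naive mPFC over each region, with NAc shown with and without its library 1; asterisks mark adjusted p below 0.05. The column over vHippo is near 0 for most genes, and the column over NAc deepens when library 1 is left out.

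The promoters of the called pallial genes were read for the E-box CAGATG, the letters that proneural factors of the Neurod family are known to bind, over 250 bases upstream of the gene start in the RefSeq table (build GRCm38.p6, both strands). A promoter was matched if its start site lay within 1000 bases of the 5' end of the gene as deposited. Of the 20 genes 13 had a matched promoter, and 3 of the 13 (23.1%) held the E-box, against 1932 of all 16021 matched promoters (12.1%). The MEF2 site was found in 0 of the 13 and in 88 of all promoters (0.549%). The 3 promoters with the E-box are shown because their genes were called higher together, with the E-box in capitals on either strand. A match describes the letters only, and no match says nothing of a factor.
Neurod2 (chr11:98329646-98329895, minus strand): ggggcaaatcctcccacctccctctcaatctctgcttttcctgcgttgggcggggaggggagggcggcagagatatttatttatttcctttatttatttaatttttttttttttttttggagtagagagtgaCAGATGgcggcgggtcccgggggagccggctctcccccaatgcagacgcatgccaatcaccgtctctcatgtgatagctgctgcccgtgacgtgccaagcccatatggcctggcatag
Nrgn (chr9:37552746-37552995, minus strand): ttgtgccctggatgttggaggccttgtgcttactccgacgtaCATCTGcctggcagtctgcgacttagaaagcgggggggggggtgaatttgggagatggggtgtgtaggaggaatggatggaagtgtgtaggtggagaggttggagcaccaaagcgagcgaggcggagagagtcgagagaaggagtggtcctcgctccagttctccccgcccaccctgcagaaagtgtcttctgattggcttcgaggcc
Dkkl1 (chr7:45211884-45212133, minus strand): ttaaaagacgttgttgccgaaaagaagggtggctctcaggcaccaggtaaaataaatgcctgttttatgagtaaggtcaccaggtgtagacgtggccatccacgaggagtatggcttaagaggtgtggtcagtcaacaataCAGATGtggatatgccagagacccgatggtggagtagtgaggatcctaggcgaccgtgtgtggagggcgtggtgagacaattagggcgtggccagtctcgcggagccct
Neurod2, a transcription factor of cortical neurons, was at 18.6, 27.4 and 23.9 FPKM in mPFC, against 22.5, 30.8 and 24.6 in vHippo, 0, 1.64 and 2.3 in VTA, 13.9, 0.0311 and 0.583 in NAc and 0.18, 0.243 and 0.244 in LH (3.3 ± 0.94, adjusted p = 0.0373). Nrgn, neurogranin, a postsynaptic protein of dendrites, was at 357, 408 and 339 FPKM in mPFC, 461, 559 and 467 in vHippo, 6.36, 50.03 and 8.69 in VTA, 300.4, 108 and 87.1 in NAc and 33.1, 12.9 and 48.6 in LH (2.15 ± 0.49, adjusted p = 0.0124). Levels of Neurod2 in mPFC and vHippo overlapped, and those of Nrgn were higher in every vHippo library than in any of mPFC. Those of Dkkl1 were lower in every vHippo library than in any of mPFC, though Dkkl1 was not called over vHippo.

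Layer markers of cortex were counted by depth, beside 7.38% of all genes higher and 5.34% lower. Of 19 genes of layers 2 to 4, 3 were higher (15.8%) and 2 lower (10.5%) than the mean of the 4 regions (3 to 5 and 1 to 3 with any 1 library left out; median log2 fold change 0.29). Of 19 of layer 5, 8 were higher (42.1%) and 0 lower (7 to 10 and 0; median 0.82), and of 19 of layers 6 and 6b, 5 were higher (26.3%) and 0 lower (4 to 8 and 0 to 1; median 0.50). The numbers without NAc library 1 were 5, 10 and 8 higher. Against VTA, LH, NAc and vHippo in turn, 7, 4, 2 and 3 genes of layers 2 to 4 were higher. In the same order 2, 3, 2 and 1 were lower. For layer 5 these were 9, 8, 3 and 1 higher and 1, 0, 0 and 0 lower. For layers 6 and 6b they were 7, 5, 3 and 2 higher and 1, 1, 2 and 0 lower. Of all genes 10.5%, 7.58%, 1.8% and 1.15% were higher and 11.1%, 7.79%, 2.8% and 1.23% lower. Summed layer 5 levels overlapped, at 207.6 to 283.5 FPKM in mPFC, 216.4 to 257.5 in vHippo and 191.8 to 290.4 in NAc. They were 133.8 to 174.7 FPKM in LH and 128.0 to 172.5 in VTA. Layers 2 to 4 summed to 121.1 to 229.5 FPKM in mPFC. This overlapped NAc (164.7 to 255.5), vHippo (124.1 to 159.8) and LH (122.4 to 182.4) but not VTA (95.66 to 107.8). Layers 6 and 6b summed to 83.98 to 179.5 FPKM in mPFC and overlapped all 4 regions, NAc library 1 being the highest at 221.4. The difference between layers was not tested. In the upper layers Lamp5, a lysosome-associated protein of layer 2 and of neurogliaform cells, was at 44.4, 19.8 and 30.7 FPKM in mPFC and 1.73 to 20.9 elsewhere (2.04 ± 0.31, adjusted p = 0.00121), and Cux2, a homeobox factor, at 11.4, 4.89 and 6.02 and 2.01 to 5.23 (1.06 ± 0.18, adjusted p = 0.00213). The highest other library overlapped mPFC library 2 for both. Cux1 was lower in mPFC (−0.46 ± 0.12, adjusted p = 0.0203), as was Mdga1, and Stard8 was the other one called higher.

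In layer 5, Fezf2, the factor that specifies corticospinal neurons, was at 25.7, 28.8 and 14.6 FPKM in mPFC, 17.1, 15.6 and 13.8 in vHippo, 0.0256, 0.118 and 0.0169 in VTA, 3.62, 0.253 and 0.513 in NAc and 0.323, 0.14 and 0.15 in LH (5.11 ± 0.54, adjusted p = 0.000166). It overlapped vHippo only. Bcl11b, its partner in those neurons and also a gene of striatal neurons, was at 9.65, 12.9 and 12.2 FPKM in mPFC, 10.8, 13.2 and 12.5 in vHippo and 26.6, 19.7 and 27.5 in NAc, and at 1.41 or less in VTA and LH (1.5 ± 0.21). Crym, a thyroid hormone-binding protein, was at 21.3, 28.5 and 24.1 FPKM in mPFC, while vHippo had 71.7, 57.5 and 70.3 (−1.37 ± 0.64 over vHippo, adjusted p = 0.358; 3.55 ± 0.45 over the mean). Hs3st2, a heparan sulfate sulfotransferase, was at 16.5, 25.5 and 13.3 FPKM in mPFC and at most 3.62 elsewhere except in NAc library 1, at 21.5 (2.79 ± 0.46). Npr3, Ldb2 and Lratd2 were also called higher, at 2.33, 1.84 and 1.01.

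In the deepest layers, Sla, a Src-like adaptor, was at 1.4, 3.2 and 2.37 FPKM in mPFC and 0.157 to 1.09 elsewhere, with no overlap (2.64 ± 0.34, adjusted p = 0.000402). Col5a1, a collagen, was at 4.3, 6.63 and 6.52 FPKM in mPFC and 6.18, 3.73 and 5.08 in vHippo, which overlapped, and at 1.58 or less in the remaining libraries (2.28 ± 0.30). Rprm, a cell cycle inhibitor gene of layer 6, was at 16.9, 55 and 16.2 FPKM in mPFC, where library 2 stood far above the other 2, and 1.53 to 16.9 elsewhere (1.98 ± 0.44, adjusted p = 0.0102). Moxd1 was called at 1.93 and at 1.54 (adjusted p = 0.0933) without mPFC library 3. Foxp2, of corticothalamic neurons, was higher than in vHippo, at 0.772, 1.68 and 0.685 against 0.0516, 0.0732 and 0.112 FPKM (3.81 ± 0.44, adjusted p = 0.00127), but lower than in NAc (−1.81 ± 0.39, adjusted p = 0.0204), and over the mean of the regions it was at 0.35 ± 0.30 (adjusted p = 0.503).

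Genes of GABAergic neurons went both ways: of 36 listed, 8 were higher (22.2%, against 7.38% of all genes) and 6 lower (16.7%, against 5.34%), with a median log2 fold change of 0.03, and of −0.32 without mPFC library 3. With any 1 library left out 4 to 10 were higher and 4 to 7 lower, and the lowest number higher, 4, came without mPFC library 1. Among the 8 higher were the neuropeptide genes Vip, Npy, Cck and Cort, whereas Sst, Crh and Tac1 of the same list were not called. Vip was at 17, 4.94 and 9.6 FPKM in mPFC and 0.161 to 6.37 elsewhere (2.89 ± 0.61, adjusted p = 0.00797), Npy at 37.7, 37.8 and 45.4 and 0.267 to 53.1 (2.08 ± 0.48, adjusted p = 0.0131), and Cck, which pyramidal neurons express too, at 178, 124 and 127 and 2.33 to 141 (2.15 ± 0.65, adjusted p = 0.0473). Cort, cortistatin, was at 3.56, 6.58 and 6.78 FPKM in mPFC, 9.47, 6.65 and 8.44 in vHippo, 3.08, 0.462 and 0.432 in NAc and 0.202, 0.299 and 0.0615 in LH and was listed at 0 in the 3 VTA libraries. In each of these 4 the mPFC libraries overlapped those of vHippo or, for Npy, of NAc. Among the 6 lower, Gad2, which makes GABA, was at 32.6, 21.4 and 28.8 FPKM in mPFC, 39.9, 28 and 34.7 in vHippo, 56.9, 29.9 and 61.2 in VTA, 77.5, 144 and 143 in NAc and 145, 179.7 and 112 in LH (−1.37 ± 0.24, adjusted p = 0.00269), and Slc32a1, the vesicular GABA transporter, had −1.17 ± 0.20 (adjusted p = 0.00211). Calb2, calretinin, was at 6.26, 5.24 and 12.9 FPKM in mPFC and 6.14 to 239 elsewhere (−2.75 ± 0.61, adjusted p = 0.0102), overlapping NAc.

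Ionotropic glutamate receptor genes were partly higher. Of 24 AMPA and kainate receptor subunits and their auxiliary proteins, 8 were higher (33.3%, against 7.38% of all genes) and 1 lower (4.17%, against 5.34%; 5 to 10 and 0 to 2 with any 1 library left out; median 0.11), and of 7 NMDA receptor subunits 1 was higher and 1 lower (14.3% each; 1 to 2 and 0 to 1). By pairs 11 of the 24 AMPA and kainate genes were higher and 2 lower than in VTA, and 8 and 2 than in LH. The numbers were 0 and 3 against NAc, and 2 and 2 against vHippo. Of all genes 10.5%, 7.58%, 1.8% and 1.15% were higher in these pairs and 11.1%, 7.79%, 2.8% and 1.23% lower. Gria3, an AMPA receptor subunit, was at 43.2, 31.4 and 28.4 FPKM in mPFC and 8.55 to 26.9 elsewhere, without overlap (1.16 ± 0.18, adjusted p = 0.0015). Among the auxiliary proteins Cacng3 was at 52.2, 34.1 and 31.7 FPKM in mPFC and 4.44 to 26.8 elsewhere (1.67 ± 0.20, adjusted p = 0.000216), Cnih3 at 29.8, 26.7 and 21.6 and 1.93 to 25 (1.76 ± 0.36), and Cacng4 was the member called lower (−0.71 ± 0.18). Shisa6, another auxiliary protein, was called over vHippo but not over VTA, NAc, LH or the mean, with 1.62, 1.19 and 2.84 FPKM in mPFC and 18.3, 23.8 and 22.3 in vHippo (−3.49 ± 0.58, adjusted p = 0.00864). Grin2b, an NMDA receptor subunit, was at 26.7, 20.9 and 12.6 FPKM in mPFC, 17, 21.3 and 22.5 in vHippo, 2.62, 2.17 and 2.66 in VTA, 16.8, 11.3 and 13.2 in NAc and 6.87, 5.05 and 5.9 in LH (1.39 ± 0.19, adjusted p = 0.000604), and Grin2d went the other way (−0.83 ± 0.18, adjusted p = 0.00817). Of 7 metabotropic receptors, Grm2 (1.96 ± 0.48), Grm8 (1.44 ± 0.28) and Grm3 (0.58 ± 0.16) were higher and Grm4 (−0.72 ± 0.16) lower, but without mPFC library 2 none of the 7 was called higher. Grm2, a presynaptic autoreceptor, was at 14.2, 7.33 and 5.09 FPKM in mPFC and 0.473 to 9.34 elsewhere, where vHippo overlapped it. Of 17 GABA receptor subunits 0 were higher and 2 lower (11.8%), Gabrq (−3.73 ± 0.94) and Gabre (−4.2 ± 1.2), and without any 1 of the mPFC libraries neither was called.

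Receptors for monoamines, acetylcholine and peptides differed in both directions. Of 29 monoamine receptors 6 were higher (20.7%, against 7.38% of all genes) and 4 lower (13.8%, against 5.34%; median 0.43), and with any 1 library left out 1 to 8 were higher, 1 without mPFC library 1, and 3 to 5 lower. Drd1, the D1 dopamine receptor, was at 3.19, 4.98 and 2.59 FPKM in mPFC, 0.998, 0.85 and 0.63 in vHippo, 0.209, 0.562 and 0.402 in VTA, 35.8, 25.5 and 39.5 in NAc and 0.806, 0.494 and 0.445 in LH. The mPFC libraries overlapped none of the other regions: they were above vHippo, VTA and LH and below NAc (1.27 over the mean, −3.13 over NAc). Drd2 was at 0.493, 0.789 and 1.34 FPKM in mPFC, overlapping vHippo (1.06, 1.07 and 0.783), and at 2.49 to 47.1 in VTA, NAc and LH (−3.03 ± 0.51, adjusted p = 0.00227). Adrb1, the beta 1 adrenoceptor, was at 9.63, 6.11 and 4.75 FPKM in mPFC and 1.11 to 4.15 elsewhere (1.41 ± 0.28, adjusted p = 0.00538), and Htr7, a serotonin receptor, at 1.52, 0.984 and 1.71 and 1.11 to 9.29 (−1.68 ± 0.32, adjusted p = 0.00397). Htr3a, Htr1f, Htr6 and Adra1a were the other members called higher, at 1.12, 1.14, 0.90 and 1.2, and Htr2c and Htr4 (−1.37) the other ones lower.

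Of 14 acetylcholine receptors 2 were higher (14.3%) and 3 lower (21.4%), against 7.38% and 5.34% of all genes. With any 1 library left out 1 to 3 were higher and 1 to 4 lower. By pairs 2 were higher and 7 lower than in VTA, and 2 and 4 than in LH. The numbers were 0 and 1 against NAc, and 0 and 2 against vHippo. Of all genes 10.5%, 7.58%, 1.8% and 1.15% were higher in these pairs and 11.1%, 7.79%, 2.8% and 1.23% lower. Chrm1, the M1 muscarinic receptor of forebrain neurons, was at 23.6, 23.7 and 18.2 FPKM in mPFC, 26.4, 32.4 and 28.1 in vHippo and 21.9, 15.1 and 17 in NAc, and at 1.3 or less in VTA and LH (2.41 ± 0.25, adjusted p = 0.000129). Chrm4 had 1.61 ± 0.33, whereas Chrm5 was lower, as given above, along with the nicotinic subunits Chrna3 (−1.35) and Chrnb2 (−0.38). Of 31 opioid, cannabinoid and peptide receptors 6 were higher (19.4%, against 7.38% of all genes) and 7 lower (22.6%, against 5.34%). With any 1 library left out 5 to 9 were higher and 1 to 8 lower, the 1 being without mPFC library 1. Vipr1, a receptor for the peptide made by Vip neurons, was at 5.36, 5.93 and 4.48 FPKM in mPFC, 4.37, 4.74 and 3.94 in vHippo and 5.22, 2.38 and 3.78 in NAc, against 0.159 or less in VTA and LH (3.02 ± 0.20, adjusted p = 2.49e-06). Sstr4, a somatostatin receptor, was at 10.1, 9.72 and 4.09 FPKM in mPFC and 0.333 to 8.42 elsewhere (2.23 ± 0.32), Npy1r at 14.3, 5.29 and 8.59 and 1.48 to 11.8 (1.29 ± 0.21), and Cnr1, the cannabinoid receptor, at 51.9, 30.4 and 29.7 and 9.51 to 59.5 (0.93 ± 0.20). All 3 overlapped vHippo. Npy2r separated the pallial regions, with 2.76, 1.59 and 2.02 FPKM in mPFC and 19.2, 21.4 and 24.8 in vHippo (−3.32 ± 0.56, adjusted p = 0.00922). The lower members included Tacr3, Tacr1 (−2.0), Hcrtr2, an orexin receptor (−1.39), and Ntsr2 (−0.70).

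Immediate early genes, which neuronal activity induces within minutes, were higher in mPFC than the mean of the 4 regions. Of 29 listed, 19 were higher (65.5%, against 7.38% of all genes) and 0 lower, with a median log2 fold change of 1.4. Their summed level was 449.4 to 557.3 FPKM in mPFC, 330.9 to 388.5 in vHippo, 322.5 to 374.9 in NAc, 208.3 to 281 in LH and 147.9 to 266.6 in VTA. By pairs 20 were higher than in VTA and in LH each (10.5% and 7.58% of all genes were), 4 than in NAc (1.8% of all genes), and 3 higher and 1 lower than in vHippo (1.15% and 1.23% of all genes). Egr3 was at 36.1, 35.7 and 22.9 FPKM in mPFC, 17.4, 23.8 and 20.2 in vHippo, 0.276, 0.732 and 0.923 in VTA, 20.2, 19.7 and 26.5 in NAc and 0.926, 0.916 and 1.9 in LH (2.93 ± 0.25, adjusted p = 4.35e-05), and Egr2 and Egr4, of the same zinc finger family, had 2.94 ± 0.39 and 2.39 ± 0.45. Nr4a1, an orphan nuclear receptor, was at 35.3, 36.5 and 26.6 FPKM in mPFC and 1.95 to 16.4 elsewhere, without overlap (2.04 ± 0.24, adjusted p = 0.000216). Npas4, a factor specific to neurons, was at 10.1, 5.59 and 3.57 FPKM in mPFC and 0.92 to 3.93 elsewhere (1.73 ± 0.26, adjusted p = 0.00118), mPFC library 3 overlapping NAc. Junb (1.72 ± 0.30) and Fosb (1.85 ± 0.47) had mPFC libraries above all others.

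Not all immediate early genes did so. Fos was at 13.2, 19.6 and 13.4 FPKM in mPFC and 1.5 to 15.8 elsewhere (1.18 ± 0.46, adjusted p = 0.117), and Arc at 37.3, 37.1 and 9.58 and 4.66 to 26 (1.45 ± 0.47, adjusted p = 0.0623). Jun was lower than in vHippo, at 12.4, 19.9 and 20.1 against 35.9, 43.3 and 28.2 FPKM (−0.98 ± 0.22, adjusted p = 0.0346), and over the mean it was at 0.16. The call of Ccn1, a matrix protein gene, rested on mPFC library 3, with 3.39, 3.73 and 15.6 FPKM (1.67 ± 0.43 with all libraries; 0.69, adjusted p = 0.33, without it). With any 1 library left out 15 to 22 of the 29 were called higher and 0 lower, and 18 without mPFC library 3. Whether handling before dissection differed between regions is not stated. Of the 19 called genes 11 had a promoter matched as above, and 1 of them (9.09%) held the full cAMP response element TGACGTCA within 250 bases upstream, against 360 of all 16021 matched promoters (2.25%). The CArG box was in 0 of the 11 and in 199 of all promoters (1.24%). The promoter with the element is shown, the element in capitals.
Btg2 (chr1:134079156-134079405, minus strand, GRCm38.p6): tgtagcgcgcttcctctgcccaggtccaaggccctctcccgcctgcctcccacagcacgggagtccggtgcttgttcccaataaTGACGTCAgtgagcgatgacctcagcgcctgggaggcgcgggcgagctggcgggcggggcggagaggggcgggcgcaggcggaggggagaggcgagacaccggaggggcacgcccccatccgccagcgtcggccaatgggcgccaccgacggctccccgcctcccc
Btg2, an antiproliferative gene, was at 14.7, 11 and 12.3 FPKM in mPFC and 2.42 to 8.4 elsewhere, without overlap (1.47 ± 0.24, adjusted p = 0.00187).

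Genes of calcium signalling and of the postsynaptic density were higher in mPFC than the mean of the 4 regions in 14 of 26 and 19 of 28 cases (53.8% and 67.9%, against 7.38% of all genes), with 0 lower in either list and medians of 0.67 and 0.80. Of the calcium genes 17 were higher than in VTA and 17 than in LH, but 5 than in NAc and 1 than in vHippo. Of the postsynaptic genes 23 were higher than in VTA, 18 than in LH, 4 than in NAc and 2 than in vHippo, where 1 was lower. Of all genes 10.5% were higher than in VTA, 7.58% than in LH, 1.8% than in NAc and 1.15% than in vHippo. The share of all genes lower than in vHippo was 1.23%. With any 1 library left out 8 to 17 of the calcium genes were higher, 8 without mPFC library 2, and 17 to 20 of the postsynaptic ones. Ddn, dendrin, a protein of dendritic spines, was at 283, 224 and 377 FPKM in mPFC, 239, 381 and 272 in vHippo, 1.47, 2.92 and 2.32 in VTA, 220.0, 150.2 and 243 in NAc and 11.2, 11.7 and 7.94 in LH (3.14 ± 0.19, adjusted p = 8.6e-07). It overlapped vHippo and NAc and was far above VTA and LH. Synpo, of the spine apparatus, was at 20.7, 22.7 and 18.5 FPKM in mPFC and 1.64 to 19 elsewhere (1.98 ± 0.19), Dlgap2, a scaffold protein, at 13.3, 10.01 and 7.44 and 0.774 to 11 (1.71 ± 0.24), and Shank1 at 45.2, 47.6 and 40.1 and 13.7 to 39.2 (1.02 ± 0.15). Of these 3 Shank1 alone had mPFC libraries above all others. Homer3 was lower than in vHippo (−2.87 ± 0.38, adjusted p = 0.00172). Among calcium genes, Hpcal4, a neuronal calcium sensor, was at 277, 275 and 258 FPKM in mPFC and 22.4 to 217 elsewhere, without overlap (1.73 ± 0.21), and Camkk2, which activates CaM kinases and AMPK, had 1.45 ± 0.20.

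Of 30 genes of presynaptic vesicle release 8 were higher (26.7%, against 7.38% of all genes) and 4 lower (13.3%, against 5.34%; median 0.37). With any 1 library left out 5 to 14 were higher and 3 to 4 lower; 14 were higher without NAc library 1, and 5 without any 1 of 9 other libraries. Stx1a, a syntaxin of the release machinery, was at 92.9, 93.9 and 76 FPKM in mPFC and 4.51 to 47.1 elsewhere, without overlap (2.4 ± 0.37, adjusted p = 0.00139), and the priming factor Unc13b was at 4.08, 3.06 and 3.83 and 0.757 to 2.98, also without overlap (1.21 ± 0.16, adjusted p = 0.000473). Other genes of the machinery went the other way. Unc13c, a relative of Unc13b, was at 3.46, 2.48 and 2.04 FPKM in mPFC and 2.0, 2.62 and 2.81 in vHippo, against 8.11 to 29 in VTA, NAc and LH (−2.06 ± 0.34, adjusted p = 0.00187). Vamp1, a synaptobrevin, was at 4.93, 6.22 and 6.17 and 5.95 to 85 (−1.65 ± 0.27, adjusted p = 0.00168), and overlapped NAc.

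Of 58 potassium channel genes 18 were higher (31.0%, against 7.38% of all genes) and 3 lower (5.17%, against 5.34%; median 0.33; 10 to 20 and 0 to 4 with any 1 library left out, 10 without mPFC library 1). By pairs 21 were higher and 6 lower than in VTA, 15 and 5 than in LH, 4 and 5 than in NAc, and 1 and 1 than in vHippo. The shares of all genes were 10.5% and 11.1%, 7.58% and 7.79%, 1.8% and 2.8%, and 1.15% and 1.23%, in the same order. Kcnh3, a channel of forebrain pyramidal neurons, was at 26.9, 21.6 and 21.1 FPKM in mPFC, 14, 14.6 and 15 in vHippo, 0.0494, 0.133 and 0.108 in VTA, 16.1, 10.3 and 15.4 in NAc and 0.50, 0.226 and 0.213 in LH, and every mPFC library was above all others (3.93 ± 0.22, adjusted p = 8.6e-07). Kcnf1, a silent subunit that modifies other channels, was at 39.6, 41 and 25.6 FPKM in mPFC and 0.826 to 22.6 elsewhere (2.15 ± 0.32), and Kcnmb4, an auxiliary subunit of large-conductance channels, at 11.7, 14.6 and 12.9 and 0.897 to 9.59 (2.11 ± 0.25), both without overlap. Kcnj4, an inward rectifier, was at 36.7, 38 and 36.1 FPKM in mPFC and as high in NAc (47.2, 25.7 and 44.1), against 2.07 or less in VTA and LH outside LH library 2, at 13.1 (2.41 ± 0.50). Kcnj10, an inward rectifier of astrocytes and oligodendrocytes, was lower, at 15.5, 19.7 and 28.6 and 19.4 to 100.3 (−1.0 ± 0.22), with Kcnh2 (−0.90) and Kcnj5 (−3.38). Of 27 sodium, calcium and HCN channel genes 4 were higher (14.8%) and 3 lower (11.1%). Cacnb3 (1.15), Cacnb4 (0.81), Scn2a (0.75) and Cacna1d (0.54) were higher and Cacna2d2 (−1.44), Hcn4 (−1.19) and Cacnb2 (−0.45) lower, and without mPFC library 1 or 2 the number called higher was 1.

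Of 72 axon guidance and cell adhesion genes 11 were higher (15.3%, against 7.38% of all genes) and 7 lower (9.72%, against 5.34%; median 0.17; 8 to 19 and 4 to 10 with any 1 library left out, 19 higher without NAc library 1). Ephb6, an Eph receptor without kinase activity, was at 47.2, 53.1 and 22 FPKM in mPFC and 8.58 to 20.3 elsewhere, without overlap (1.75 ± 0.23, adjusted p = 0.000491), Ephb3 had 1.06 ± 0.18, and Rtn4rl1, of the Nogo receptor family, 0.93 ± 0.16. Ntng1, a netrin relative of thalamic axons, was lower, at 3.15, 2.02 and 1.99 and 2.12 to 12.4 (−1.33 ± 0.24, adjusted p = 0.00318), overlapping NAc. Of 26 neurotrophin and growth factor genes 4 were higher (15.4%) and 2 lower (7.69%). Igfbp6, which binds insulin-like growth factor 2, was at 14.6, 14.7 and 20.6 FPKM in mPFC and 0.144 to 6.2 elsewhere, without overlap (3.54 ± 0.37, adjusted p = 0.000129). Its ligand gene Igf2 was also called (2.29 ± 0.69), but its levels were 1.41, 1.07 and 54.4 FPKM, and without mPFC library 3 it was called lower (−1.51, adjusted p = 0.00321). Bdnf was at 6.34, 4.35 and 3.06 FPKM in mPFC and 0.0966 to 6.54 elsewhere (1.29 ± 0.60, adjusted p = 0.189). Of 20 genes of the perineuronal net and extracellular matrix 4 were higher (20%) and 1 lower (5%), and without mPFC library 3, 3 were higher and 4 lower. The largest increase was in Matn2, a matrilin, at 5.89, 4.64 and 7.78 FPKM in mPFC and 0.578 to 6.26 elsewhere (1.66 ± 0.17).

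Genes of the corticosteroid response and of autophagy, the process in the title of the study, were called in shares that can be read against the 7.38% of all genes called higher and 5.34% called lower. Of 14 genes of the corticosteroid response 2 were higher (14.3%) and 1 lower (7.14%), and the lower call was lost without any 1 of 11 libraries. Zbtb16, a zinc finger gene that glucocorticoids induce, was at 9.97, 7.86 and 4.54 FPKM in mPFC and 10.3, 10.3 and 7.67 in vHippo, against 0.743 to 1.77 in VTA, NAc and LH (1.89 ± 0.23, adjusted p = 0.000275). Nr3c1, the glucocorticoid receptor, was at 16.3, 13 and 12.5 FPKM in mPFC and 8.25 to 15.1 elsewhere (0.34 ± 0.14, adjusted p = 0.116). Fkbp5, which holds that receptor inactive, was lower than in vHippo, at 1.49, 1.81 and 2.36 against 3.76, 5.32 and 4.39 (−1.21 ± 0.20, adjusted p = 0.00813). Of 38 autophagy genes 1 was higher (2.63%) and 3 lower (7.89%), in all close to the share of all genes (0 to 2 and 1 to 4 with any 1 library left out; median −0.06, against 0.02 over all genes). Prkaa2, a catalytic subunit of AMPK, was at 11.3, 6.99 and 4.65 FPKM in mPFC and 3.08 to 6.09 elsewhere (0.95 ± 0.23, adjusted p = 0.017). The other catalytic subunit, Prkaa1, was lower, at 7.51, 6.18 and 7.03 and 8.42 to 17.4, without overlap (−0.62 ± 0.11, adjusted p = 0.00318), as were Gabarapl2, of autophagosome membranes (−0.34 ± 0.08), and Lamp1, of lysosomes (−0.48 ± 0.13). Of 52 genes of oxidative phosphorylation 0 were higher and 3 lower (5.77%), against 7.38% and 5.34% of all genes. With any 1 library left out 0 to 1 were higher and 1 to 5 lower. The median with all libraries was −0.20. The 3 were Sdhc (−0.49 ± 0.10), Ndufv2 (−0.48 ± 0.10) and Ndufs7 (−0.40 ± 0.09), all called by differences of less than 2-fold. By pairs 18 of the 52 were lower than in VTA and 4 than in LH (11.1% and 7.79% of all genes were). Against NAc and vHippo 0 were lower, and 0 were higher in any pair. Within the CRS libraries 0 of the 52 were called over the mean, with a median of 0.21.

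Oligodendrocyte genes were lower in mPFC than in VTA, NAc and LH. Of 24 listed, 22 were lower than the mean of the 4 regions (91.7%, against 5.34% of all genes) and 0 higher (19 to 22 with any 1 library left out; median −1.92). By pairs 24 were lower than in VTA and in LH each (11.1% and 7.79% of all genes were) and 20 than in NAc (2.8%), but 0 were lower or higher than in vHippo. Summed levels were 185.2 to 532.2 FPKM in mPFC, 299.3 to 415.2 in vHippo and 1207 to 4976 in the other 3 regions. Mobp, a protein of myelin, was at 15.9, 35.4 and 57.8 FPKM in mPFC, 27, 37.5 and 43.1 in vHippo, 459, 374 and 736 in VTA, 249, 279.6 and 143 in NAc and 364, 475 and 156 in LH (−2.36 ± 0.43, adjusted p = 0.00332). Library 1 was the lowest mPFC library for it and library 3 the highest, and none reached VTA, NAc or LH. Mbp, the myelin basic protein, had −1.98 ± 0.40. Of 12 precursor genes 6 were lower (50.0%) and 0 higher (3 to 8 and 0 to 1), among them Olig1 (−1.18 ± 0.20) and Lhfpl3 (−1.16 ± 0.17).

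Of 22 astrocyte genes 2 were higher (9.09%, against 7.38% of all genes) and 5 lower (22.7%, against 5.34%; median −0.48), and without mPFC library 3 the numbers were 1 and 13. In the other 14 fits that left out 1 library at most 2 were higher and 7 lower. Agt, angiotensinogen, made by astrocytes below the cortex, was at 1.36, 2.71 and 2.99 FPKM in mPFC, 18.8, 16.8 and 15.5 in vHippo, 47.2, 87.4 and 88.7 in VTA, 1.86, 33 and 5.24 in NAc and 104, 84.5 and 146 in LH (−3.89 ± 0.73, adjusted p = 0.00453). Slc1a2, the main astrocytic glutamate transporter, was higher (0.56 ± 0.13, adjusted p = 0.0127). Of 16 microglia genes, 18 of endothelium and pericytes and 5 of red blood cells, 0 were called in either direction, and without mPFC library 3, 7 endothelial genes were lower. Leptomeningeal genes were called higher in 10 of 15 (66.7%; median 2.29) with all libraries, but without mPFC library 3, 1 was higher and 2 lower, with a median of −0.58. Of 14 choroid plexus and ependymal genes 0 were higher and 3 lower, none of them without mPFC library 1 or 2. Col1a2, a collagen of the leptomeningeal list, was at 0.904, 1.1 and 7.06 FPKM in mPFC and 0.238 to 0.915 elsewhere. Most calls of leptomeningeal genes thus rested on 1 of the 3 mPFC libraries.

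Neuron genes of the other regions were low in mPFC, as a check of the labels. Of 23 VTA dopamine genes 21 were lower than in VTA, of 26 striatal genes 23 were lower than in NAc, and of 30 hypothalamic genes 17 were lower than in LH, with 0 higher in each pair (10.5%, 1.8% and 7.58% of all genes were higher, and 11.1%, 2.8% and 7.79% lower). Penk, the enkephalin precursor of striatal neurons, was at 7.85, 6.96 and 16.3 FPKM in mPFC and 296, 342 and 482 in NAc (−5.12), and Adora2a, an adenosine receptor of striatal neurons, at 0.758, 0.451 and 0.814 and 46.8, 31.8 and 61 (−6.06). Slc17a6, the vesicular glutamate transporter of subcortical neurons, was at 2.98, 3.25 and 3.46 FPKM in mPFC, 1.76, 2.69 and 3.19 in vHippo, 83.6, 94.5 and 47.2 in VTA, 4.33, 6.67 and 1.67 in NAc and 38.9, 31.6 and 50.8 in LH (−1.99 ± 0.36, adjusted p = 0.00342), the reverse of Slc17a7. Of 14 genes of olfactory bulb and anterior olfactory areas, which adjoin the mPFC block, 1 was higher and 1 lower than the mean (7.14% each, against 7.38% and 5.34% of all genes), and of 14 thalamic genes 2 were higher (14.3%) and 5 lower (35.7%).

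**Figure D4:**
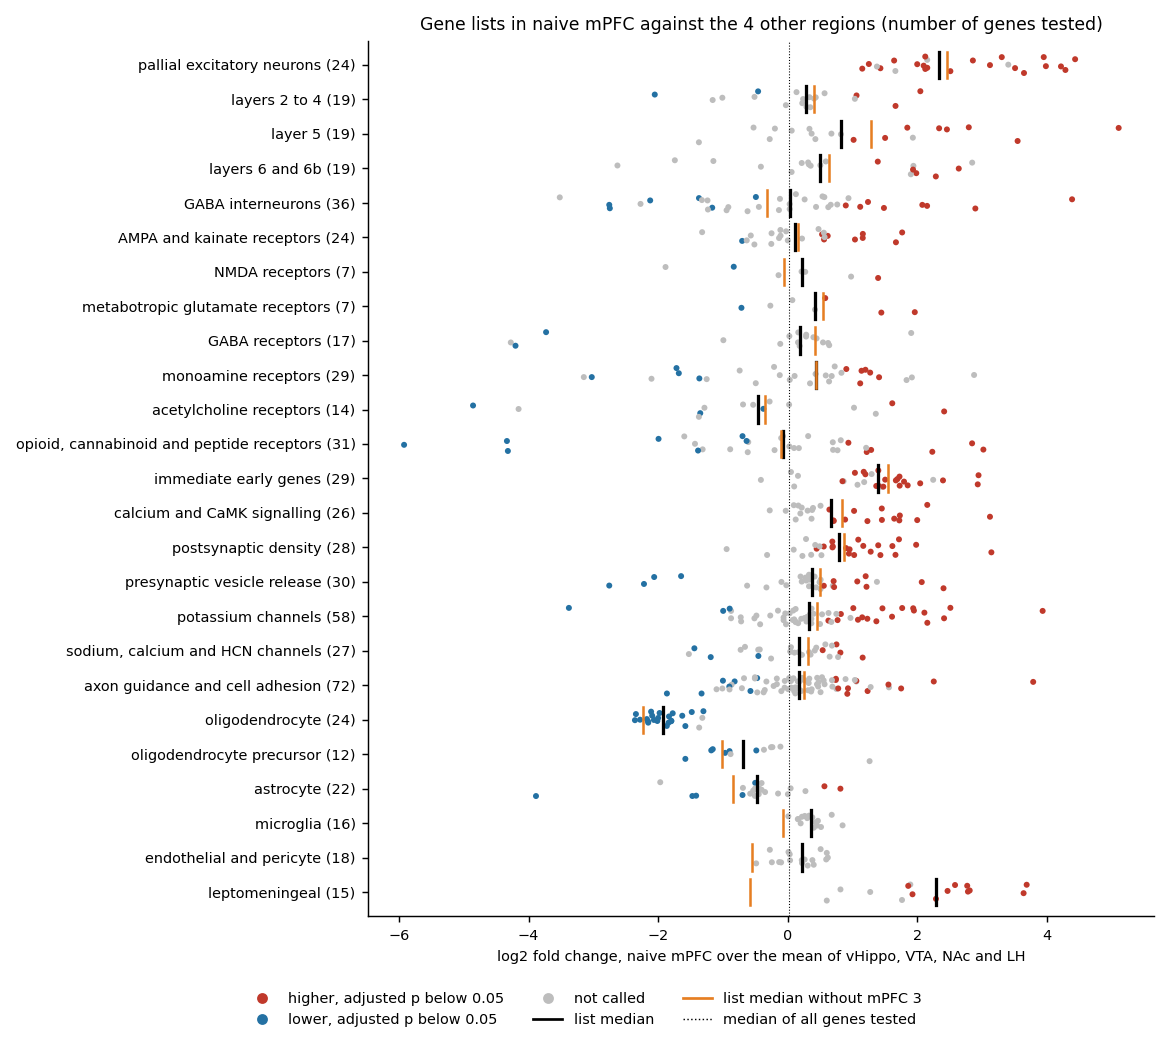
Log2 fold change of naive mPFC over the mean of vHippo, VTA, NAc and LH for the genes of 25 of the 38 lists (number tested in parentheses); lists of neurons of other regions and 7 further lists are not drawn. Points are genes, red higher and blue lower at adjusted p below 0.05, black bars are list medians and orange bars the medians without mPFC library 3; the pallial, immediate early and leptomeningeal medians are the highest of those drawn, the oligodendrocyte median is the lowest of those drawn, and the leptomeningeal median falls below 0 without library 3.

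The same contrast was drawn within the CRS libraries, which share no library with the naive fit. Of 22558 genes tested there, 1660 (7.36%) were higher and 1146 (5.08%) lower in CRS mPFC than the mean of the 4 CRS regions. All 34 genes higher than every region in naive libraries had the same direction, and 25 (73.5%) were called. Of the 28 lower ones, 26 had the same direction and 14 (50.0%) were called. The 14 olfactory genes summed to 313.3 FPKM in CRS mPFC library 3, against 14.37 and 19.88 in CRS mPFC libraries 1 and 2, and 9 of them were called higher in CRS mPFC; without that library 30 of the 34 (88.2%) and 21 of the 28 (75.0%) were called. Mef2c had a log2 fold change of 3.81 in CRS libraries and 3.95 in naive ones, Cckbr 3.01 and 2.84, Tacr3 −4.1 and −4.34, and Gpr101 −4.71 and −5.08. Genes of the 34 and of the 28 outside these 25 and 14 were not called with all CRS libraries. Of these Col3a1 had 0.17 (adjusted p = 0.935) in CRS libraries, and Mdga1 0.22 (adjusted p = 0.882), which became −2.36 without CRS mPFC library 3. Of the genes higher than the mean in naive libraries 1017 of 1649 tested (61.7%) were called in CRS libraries, which is 61.3% of the CRS calls, and of the lower ones 598 of 1222 (48.9%, or 52.2% of the CRS calls).

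By lists, 23 of the pallial genes, 23 of the immediate early genes and 19 of the postsynaptic density genes were called higher in CRS mPFC and 21 of the oligodendrocyte genes lower, close to the naive counts of 20, 19, 19 and 22. Against vHippo alone, 9 of the 24 oligodendrocyte genes were lower in CRS mPFC, and 0 in naive mPFC. Of 21927 genes tested in both fits 287 were lower than in CRS vHippo. The oligodendrocyte genes summed to 405.9 to 1626 FPKM in CRS vHippo. For this pair a difference between CRS and naive libraries was not tested. The difference between the contrasts, CRS minus naive, was tested with edgeR's quasi-likelihood test in a fit of all 30 libraries. Of 24244 genes 0 passed an adjusted p of 0.05 and 1163 had an unadjusted p below 0.05, and the smallest adjusted p was 0.535. A p above the threshold does not show that the regional differences were equal.

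**Figure D5:**
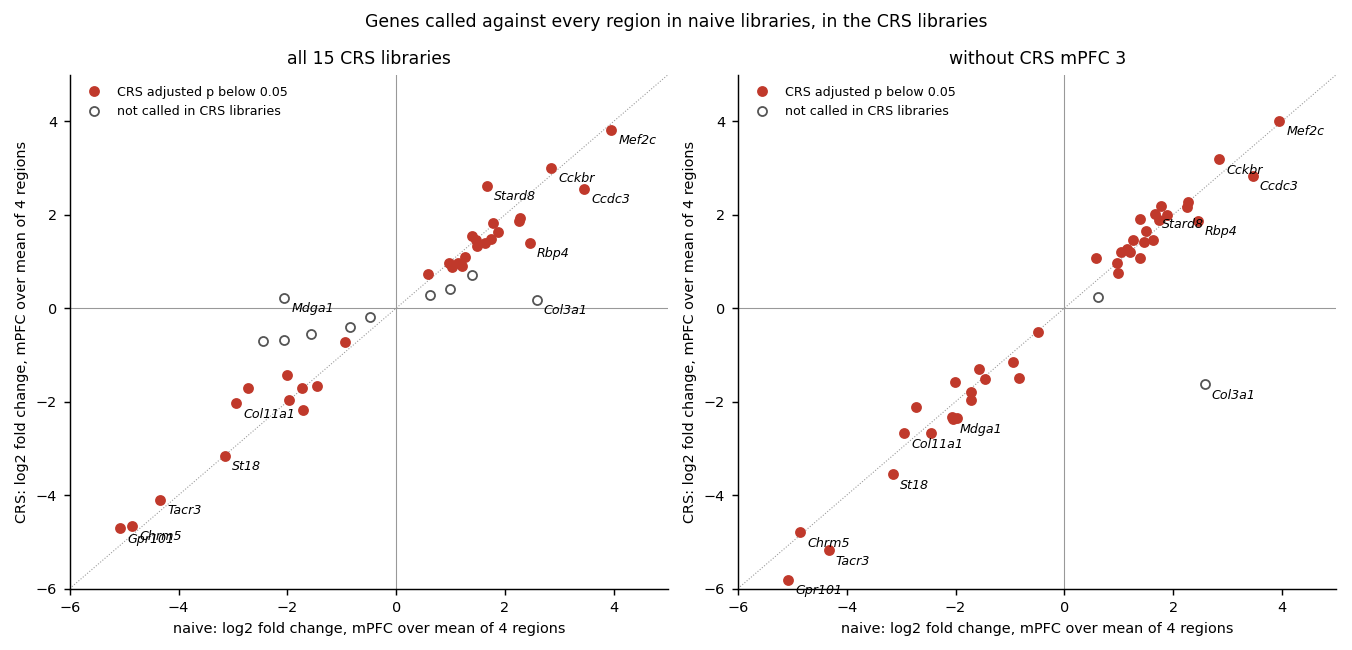
Log2 fold change of mPFC over the mean of 4 regions in CRS libraries (vertical) against that in naive libraries (horizontal), for the 24 higher and 18 lower named genes. Filled points were called in CRS libraries; the left panel has all CRS libraries and the right one leaves out CRS mPFC library 3, after which Mdga1 and others move to the diagonal while Col3a1 does not.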

How the data were processed

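RNA of each brain region was captured with oligo-dT beads and sequenced, per the labels' protocols. Read counts and FPKM values per gene (40905 genes) are the authors' deposited values, in a table of the whole series. Per the submitters' processing notes, cutadapt 1.9, HISAT2 2.0.4, StringTie 1.3.4d and edgeR were used; how reads were counted and whether strand was used are not given in the sources used here, so overlapping and antisense genes may share reads. The notes name GRCm39, but 99.519% of the start positions of 40748 matched genes equal those of GENCODE M21, which is GRCm38, and coordinates here are GRCm38. A further 18 count columns match no sample and were not used. From the deposited counts, a robust quasi-likelihood fit of 5 group means over 15 naive libraries was made in edgeR 4.0.16 (R 4.3.3; filterByExpr, then TMM scaling), with a weight of 0.25 for each of the 4 regions, and Benjamini-Hochberg adjustment over all genes tested at 0.05. The CRS libraries were fitted alike. The fit was also run on simulated counts with known changes in mPFC, the same spread for every gene and no outlying library. These counts are simpler than the real ones, so the run does not show how the fit performs here. FPKM was used to describe levels, never to test.

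Named genes were the 12 with the largest differences in each direction among those called against the mean and each region (mean of at least 1 FPKM in the higher group, established symbol), the rest of those called, the 6 largest in each direction against vHippo (5 FPKM), and members of 38 gene lists. Some genes that this rule covers are not reported here, though they remain in the counts. The comparison and the lists were chosen with earlier results of these data known. Replicates differed beyond sampling noise in all 15 pairs (chi-square per degree of freedom 27.2 to 426.6). Alternatives were RLE scaling, no filter, DESeq2 1.42.0, all 30 libraries, a replicate block, a test against a 2-fold change, each library left out and, chosen after seeing the data, several left out together.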

Additional observations from a re-analysis of the deposited data

How the results depend on the processing

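Of 183 called comparisons of named genes, 123 kept their call with RLE scaling, no filter, DESeq2, all 30 libraries, the replicate block and each library left out. Directions turned in 4 named genes: Igf2 was at −1.51 without mPFC library 3 (up to 2.865 without another library), and Foxp2 and Jun, neither of them called over the mean, were at −0.264 and −0.015 without mPFC library 2 (up to 0.619 and 0.384 without another). Prkcd, not called either, was at 0.037 without NAc library 1, VTA library 2 and LH libraries 1 and 2. The cause was not tested. Leaving out mPFC library 1 or 2 lost the most calls, 43 each, against 18 without mPFC library 3 and 16 or fewer without any other single library.

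With any 1 library left out, genes higher and lower than the mean numbered 989 to 2036 and 466 to 1628. Against vHippo they were 71 to 403 and 79 to 395, against VTA 1875 to 2523 and 1702 to 2834, against NAc 96 to 902 and 205 to 990, against LH 1205 to 1933 and 1051 to 2101, and against every region 8 to 124 and 7 to 103. In CRS libraries they were 1086 to 2072 and 677 to 1733. A fit with 1 library fewer assumes that the remaining ones vary like those of the other groups.

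The numbers of calls depended most on the size of difference tested. Against a 2-fold change, 127 genes were higher and 47 lower than the mean, 7 and 25 than vHippo, 492 and 452 than VTA, 17 and 60 than NAc, 305 and 278 than LH, and 0 and 2 than every region; in CRS libraries 209 and 115 passed. DESeq2 called more: 1893 lower than the mean, 761 higher and 618 lower than vHippo, 1205 and 1166 than NAc, 164 and 105 than every region, and 1801 lower in CRS libraries. With no filter on low counts 21 genes were higher than every region. RLE scaling moved the median of all genes to 0.05 and no count by over 1.5 times, and neither did the fit of all 30 libraries. Without NAc library 1 and VTA library 2, 405 genes were higher than vHippo, 1020 than NAc and 134 than every region. Without LH libraries 1 and 2 as well, 423 were higher than vHippo, 1085 than NAc, 102 higher and 45 lower than every region, and 987 higher and 862 lower than LH, for which 1 library remained.

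No pairing by replicate number was seen: 7 of 30 correlations between same-numbered libraries of different regions were over 0.1, within a range of −0.214 to 0.262, and 9 were the best of their library. The correlations are of deviations from means of 3 libraries, which also hold differences between dissected pieces. They cannot show that same-numbered libraries came from different mice. With the replicate block 1504 genes were higher and 1071 lower than the mean, and 25 and 19 than every region. Of the named genes 7 were no longer called with it, Neurod2 (adjusted p = 0.0672), Lratd2, Igf2, Chrnb2, Hcrtr2, Htr4 and, over vHippo, C1ql2.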

Other observations

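The mPFC libraries differed from each other in the make-up of their RNA. In mPFC library 2, ribosomal RNA genes took 7.733% of counts, against 1.423% and 1.138% in mPFC libraries 1 and 3 and 0.789% to 2.82% in the 12 libraries of other regions. In mPFC library 3, microglia genes summed to 325.2 FPKM, against 156.8 in library 1 and 142.2 in library 2. The median log2 fold change of the 16 microglia genes was 0.35 with all libraries and −0.07 without mPFC library 3, and 0 of them were called in either direction in either fit. The part of ribosomal RNA in the results was not tested.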
